A study of Mus musculus with 24 samples.

Results

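Aortae of wildtype mice were compared by sequencing of total RNA in 12 libraries: 6 libraries from mice given angiotensin II (AngII) and 6 from control mice, chosen by their labels from the 24 libraries of the study. The mice belonged to a line bought from the Jackson laboratory that carries a targeted allele of the calcineurin A beta gene (B6,129S6-Ppp3cb tm1Jmk), and the libraries used here are those labelled wildtype (WT) for it. The other 12 libraries, from Ppp3cb knockout (KO) mice, are set beside them only at the end. AngII was released by osmotic minipumps at 500 ng/kg body weight per min for 4 weeks, in mice 5 months old, and each group held 3 females and 3 males. Nothing in the labels tells if a pump was also placed in controls, if WT and KO mice were littermates, or if every library came from its own mouse, so p-values measure the spread between these libraries.

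AngII is a peptide hormone that raises blood pressure. It acts mainly through the AT1 receptor on vascular smooth muscle cells, where it releases calcium, contracts the vessel and activates kinases and calcium-dependent enzymes, among them the phosphatase calcineurin. Given over weeks it is a widely used way to produce hypertension in mice, in which the aortic wall thickens and lays down extracellular matrix.

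Total counts of the WT libraries ran from 2510551 to 4724160, with a median of 3835993. Ribosomal, small nuclear and miscellaneous small RNAs took 15.3% to 39.1% of them, and protein-coding genes took 35.9% to 64.7%. The share of those small RNAs in males was 32.3% to 39.1% under AngII and 16.7% to 37.4% in controls, and with it as a covariate 30 genes rose and 2 fell, 23 of them among the 40 described below. Chromosomes 9, X, Y and MT and the distal part of chromosome 8 held no counts, so 2664 of 21667 protein-coding genes were not measured, and the sex in the titles could not be checked against the data. A pair of libraries stood apart. Across the 30 genes that rose, AngII female replicate 1 lay a median of 0.49 log2 units above the controls of its sex, against 1.07 to 1.66 in the other 5 AngII libraries. Across the 10 genes that fell it lay at -1.19, beside -1.29 to -1.54 in the others. Whether each pump delivered its dose was not analysed here, so this library is counted as labelled. Control male replicate 2 had the highest summed levels of endothelial and of sympathetic neuron markers of all 12 libraries. Counts were repeated without each of these. AngII female replicate 1 was singled out by its small rise across the 30 risers, so more calls without it follow partly from that choice. Genes that passed only without it are therefore no added support for a response.

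Of 12715 genes tested, 40 changed (0.315%): 30 rose (0.236%) and 10 fell (0.0786%), by edgeR's quasi-likelihood test with sex as a covariate and Benjamini-Hochberg adjustment over all genes tested, at an adjusted p under 0.05. Fold changes are log2 ratios of AngII to control, with their standard errors. The median log2 fold change over all tested genes was -0.01, and the 5th and 95th percentiles were -0.79 and 0.67. All 40 had the same sign in females and in males. For 21 of them every AngII library lay on one side of every control library, where 0.393% of all tested genes lay wholly above and 0.307% wholly below. The number of calls moved with single libraries: 177 of 13098 genes changed without AngII female replicate 1 (1.35%; 132 rose, 1.01%, and 45 fell, 0.344%), and all 40 were among them. It was 9 without control female replicate 1, AngII female replicate 2 or AngII female replicate 3, 11 without control female replicate 3 or AngII male replicate 3, and 12 without control female replicate 2 or control male replicate 3. Without AngII male replicate 1 it was 17 and without AngII male replicate 2 it was 20, while it was 43 without control male replicate 1 and 39 without control male replicate 2. The 8 genes that passed in each of these 12 fits were Igfbp2, Col1a1, Col3a1, Col4a2, Col18a1, Sparc, Olfml2a and the transcript Gm830. Of the 40 genes 30 passed in 6 or fewer of them, with the same sign throughout. Among these, Anxa3 passed in 2, Col1a2 in 3, and Col4a1, Col5a2, Col15a1 and Itga5 in 4. Col6a3 and Mki67 passed in 5, and Postn, Ccn2 and Acan in 6.

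Fibrillar collagens, the rope-like proteins that give the vessel wall tensile strength, gave 4 of the risers. Of 8 tested members of the list 4 rose, none fell, and the list's median was 0.89 beside -0.01 over all genes. Col1a1 encodes the larger share of type I collagen. Its control levels had a lowest, median and highest value of 473, 659 and 805 CPM (counts scaled to the library's size), and its AngII levels of 1276, 1600 and 2787. Every AngII library lay above every control, and the rise was 1.43 ± 0.21 (edgeR adjusted p = 0.00624). Its partner chain Col1a2 rose by 1.12 ± 0.21 (adjusted p = 0.0294) and had an overlap between the groups, from 364 to 685 CPM in controls and from 627 to 1608 under AngII. Col3a1, the type III collagen of distensible tissues, went from 600, 765 and 935 CPM in controls to 1238, 1712 and 2554 under AngII. The groups did not overlap, and the rise was 1.19 ± 0.18 (adjusted p = 0.00649), at 1.08 to 1.31 whichever library was left out. Col5a2, which nucleates type I and III fibrils, lies next to Col3a1 on chromosome 1, with 24614 bases between them. It rose by 1.09 ± 0.20 (adjusted p = 0.0286). Its partner chain Col5a1 was at 0.69 ± 0.20 and missed the threshold (adjusted p = 0.202).

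**Figure D1:**
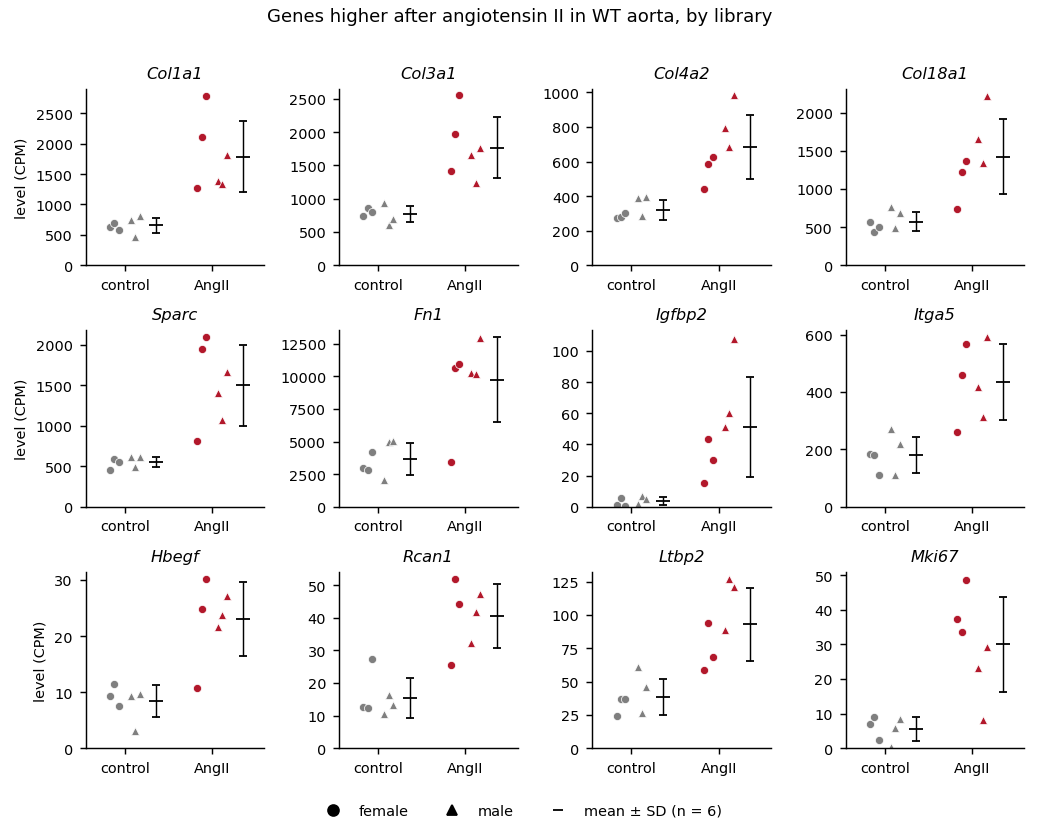
Levels in CPM (library-scaled counts) of 12 genes that rose, in each WT library (circles, female; triangles, male; grey, control; red, AngII), with the mean ± SD of each group (n = 6). The AngII circle that sits lowest in the panels of Fn1, Sparc and Hbegf is AngII female replicate 1.

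Basement membrane collagens were the other collagen group with several risers. Basement membranes are the thin sheets that underlie endothelium and wrap each smooth muscle cell. Of 19 tested members 4 rose and none fell, with a median of 0.46, and all 4 were collagens. Col4a1 and Col4a2 encode the chains of the type IV network and start head to head on chromosome 8, where their annotated exons share 22 bases. Col4a2 had control levels of 273, 293 and 396 CPM and AngII levels of 441, 655 and 984, and Col4a1 had 406, 455 and 657 against 711, 863 and 1144. Neither gene's groups overlapped. The rises were 1.08 ± 0.15 (edgeR adjusted p = 0.00624) and 0.83 ± 0.16 (adjusted p = 0.0353). Col18a1, the source of endostatin, rose by 1.29 ± 0.19 (adjusted p = 0.00624), and its only overlap was AngII female replicate 1, which at 736 CPM lay under the highest control at 770. Col15a1, a related collagen that links basement membranes to the fibres around them, rose by 1.29 ± 0.24 (adjusted p = 0.0298). Laminins were not among the risers. Of the most abundant members that missed the threshold, Hspg2, the proteoglycan perlecan, was at 0.53 ± 0.17, and Lama5 at 0.34. Among other collagens, Col6a3, a chain of the beaded type VI microfibrils, was the only 1 of 11 tested members that rose, by 0.98 ± 0.18 (adjusted p = 0.0286), and its groups did not overlap. The companion chains Col6a1 and Col6a2 were at 0.68 ± 0.16 (adjusted p = 0.0987) and 0.60 ± 0.18 (adjusted p = 0.243). Without AngII female replicate 1, where 1.01% of all genes rose, the counts were 4 of 9 fibrillar, 5 of 19 basement membrane and 4 of 12 other collagens.

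Matricellular proteins and adhesive glycoproteins sit in the matrix and regulate how cells attach to it. In that list 5 of 26 tested genes rose and none fell, with a median of 0.81. The count was 11 of 26 and the median 0.95 without AngII female replicate 1. Sparc, a collagen-binding protein of the matrix, went from 458, 574 and 617 CPM to 811, 1533 and 2097 with no overlap, a rise of 1.43 ± 0.21 (edgeR adjusted p = 0.00624). Postn (periostin), made by activated fibroblasts, rose by 1.4 ± 0.24 (adjusted p = 0.0186) from 473 to 778 CPM in controls to 862 to 2753. Ccn2, the connective tissue growth factor, rose by 1.33 ± 0.23 (adjusted p = 0.0186), also without overlap. An antisense gene shares 23.2% of the exon bases of Ccn2, and it is not stated whether reads were counted by strand, so the pair cannot be told apart there. Fn1 (fibronectin) had 2028 to 5062 CPM in controls and 10199 or more in 5 AngII libraries, but 3431 in AngII female replicate 1. Its rise was 1.4 ± 0.28 (adjusted p = 0.043), and 1.58 ± 0.23 (adjusted p = 0.00122) without that library. Fn1 passed in 3 of the 12 fits that left out a library. Mfge8, which carries the medin peptide and binds to elastin and dying cells, rose by 1.06 ± 0.22 (adjusted p = 0.0471). Its level in AngII female replicate 1, 170 CPM, lay under the lowest control at 179. The call held in 1 of the 12 fits that left out a library, the fit without that replicate. Mfge8 lies 18668 bases from Acan on chromosome 7. Tenascin C (Tnc) was at 0.92 ± 0.19 and just missed the threshold (adjusted p = 0.055), while Mgp, an inhibitor of calcification, was at 1.33 ± 0.32 (adjusted p = 0.105). Both passed without AngII female replicate 1, the library singled out by its small response. There Tnc was at 1.05 ± 0.16 (adjusted p = 0.00143) and Mgp at 1.58 ± 0.18 (adjusted p = 0.000254).

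Elastic fibre genes encode the recoil of the artery and had 11 of 12 tested members above 0, where 49.4% of all tested genes were, with a median of 0.48, but none of them passed the test. Eln (elastin) had control levels of 235, 394 and 985 CPM and AngII levels of 450, 1169 and 1556, and was at 1.18 ± 0.28 (edgeR adjusted p = 0.0969). Fbn1, the backbone of microfibrils, was at 0.78 ± 0.17 (adjusted p = 0.0697) although its groups did not overlap. Mfap4, a microfibril-associated protein, was at 1.33 ± 0.30 (adjusted p = 0.0868). Without AngII female replicate 1, 5 of the 12 rose, among them Eln by 1.33 ± 0.26 (adjusted p = 0.0142), Fbn1 by 0.86 ± 0.16 (adjusted p = 0.00874) and Mfap4 by 1.51 ± 0.23 (adjusted p = 0.00143). The enzymes that modify, cleave and crosslink collagen had 23 of 25 tested members above 0 and a median of 0.48, and again none passed. Lox, the crosslinking lysyl oxidase, was at 1.21 ± 0.28 (adjusted p = 0.086), and Serpinh1, the collagen chaperone HSP47, at 0.48 ± 0.15 (adjusted p = 0.284). Without the same library 3 of the 25 rose, Lox by 1.35 ± 0.24 (adjusted p = 0.00574).

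Proteoglycans gave 2 risers among 22 tested genes, with a list median of 0.29. The count was 4 without AngII female replicate 1 and 1 without control male replicate 2. Acan (aggrecan), the large chondroitin sulfate proteoglycan of cartilage, went from 5.92, 8.29 and 17.7 CPM to 11.5, 48.3 and 103. The lowest AngII value, in AngII female replicate 1, lay among the controls, and the other 5 lay above all of them. Its rise was 2.45 ± 0.44 (edgeR adjusted p = 0.024). Sdc4 (syndecan 4), a heparan sulfate coreceptor for fibronectin and growth factors, rose by 0.82 ± 0.16 (adjusted p = 0.0393) from 46.3 to 74.8 CPM in controls to 75.8 to 132. Sulf1, an enzyme that removes sulfate groups from such heparan sulfate chains, rose by 0.91 ± 0.18 (adjusted p = 0.0383), again without overlap. Qsox1, a secreted enzyme that forms disulfide bonds in matrix proteins, rose by 0.94 ± 0.18 (adjusted p = 0.0341). Sdc4 passed in 1, Sulf1 in 2 and Qsox1 in 3 of the 12 fits that each left a library out.

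Of 32 tested matrix proteases and inhibitors none passed, and the median was 0.26. Timp3, an inhibitor of metalloproteinases and the most abundant of them, was at 0.45 ± 0.18 (edgeR adjusted p = 0.435), between 388 and 584 CPM in controls and 395 and 838 under AngII. Without AngII female replicate 1, 2 of the 32 rose.

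**Figure D2:**
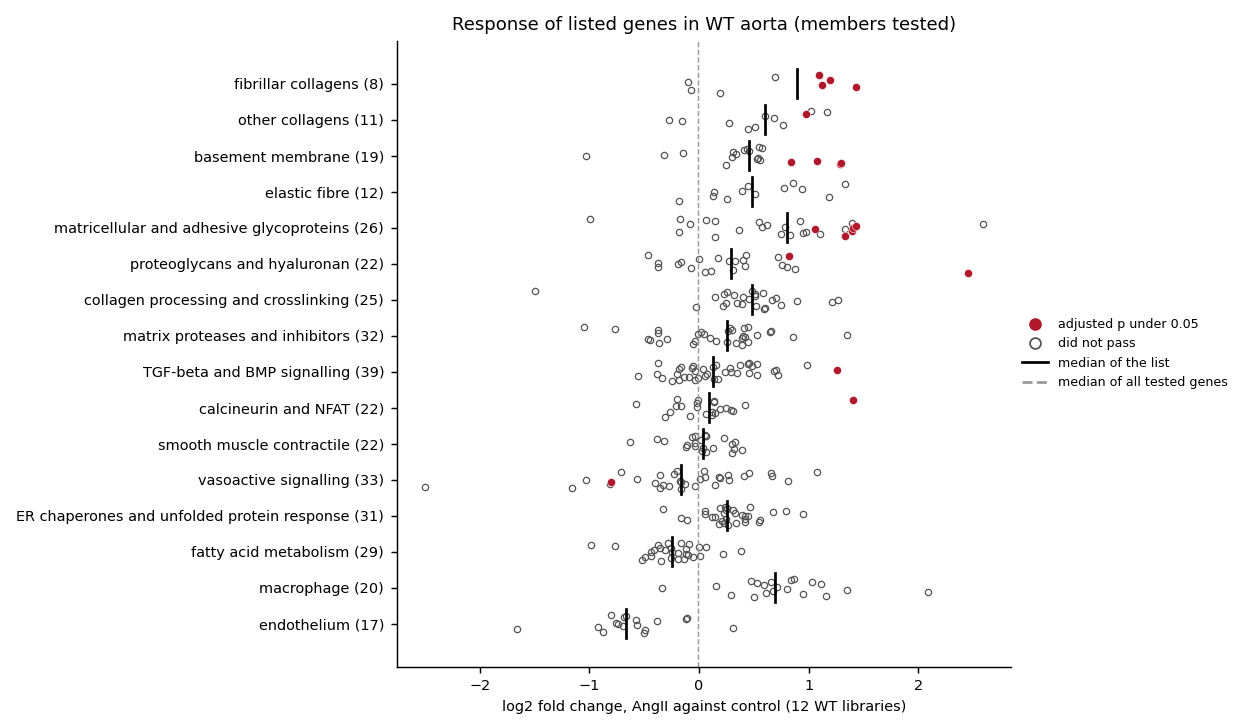
Log2 fold change of AngII against control for every tested member of 16 gene lists (number tested in brackets; red, adjusted p under 0.05; open, did not pass; bar, median of the list; dashed line, median of all tested genes). The medians of the matrix lists lie to the right of the dashed line, contractile genes centre on it, and the endothelial median lies to its left. Each list has members on both sides.

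Igfbp2 had the largest rise of all genes that passed. It encodes a secreted protein that binds insulin-like growth factors, and lies at chr1:72824503-72852474 on the plus strand. It was close to absent in controls, at 0.62, 1.11, 1.84, 4.84, 5.66 and 7.02 CPM, and stood at 15.1, 30.1, 43.4, 51, 60.1 and 108 CPM under AngII. Every AngII library exceeded every control, and the rise was 3.72 ± 0.41 (edgeR adjusted p = 0.000715), at 3.52 to 4.24 whichever library was left out. Igfbp7, a related binding protein of vessel basement membranes, was at 280 to 371 CPM in controls and at 618 to 938 in 5 AngII libraries. AngII female replicate 1, at 246 CPM, lay under all controls. The rise was 1.16 ± 0.24 (adjusted p = 0.0448) and passed in 1 of the 12 fits that left out a library, the fit without that replicate, at 1.35 ± 0.15 (adjusted p = 0.000223). Igfbp5 and Igfbp4, the most abundant other binding proteins, were at -0.32 and 0.46 and did not pass. In this list of 16 tested genes 2 rose, none fell and the median was 0.24, or 0.54 without control male replicate 1. Without AngII female replicate 1, 5 rose, 1 fell and the median was 0.13, and without control male replicate 2, 1 rose.

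Transforming growth factor beta (TGF-beta) is stored in the matrix bound to latent binding proteins and drives collagen synthesis once released. Among 39 tested genes of TGF-beta and BMP signalling 1 rose, and the median was 0.13. This was Ltbp2, a member of the latent binding family that attaches to microfibrils, at 24.1, 36.8 and 60.8 CPM in controls and 58.4, 91.1 and 127 under AngII. TGF-beta stored in the matrix was not measured, and the level of Ltbp2 RNA is no reading of it. A single control, at 60.8, exceeded the lowest AngII library, and the rise was 1.26 ± 0.20 (edgeR adjusted p = 0.0118). The ligand Tgfb2 was at 0.98 ± 0.23 (adjusted p = 0.0987), Tgfb3 at 0.53 ± 0.15 (adjusted p = 0.193) and Tgfb1 at 0.37 ± 0.23 (adjusted p = 0.694). Tgfb2 passed without AngII female replicate 1, at 1.10 ± 0.21 (adjusted p = 0.0121), and without control male replicate 2, at 1.12 ± 0.23 (adjusted p = 0.0451). Of the 39, 5 rose without the former and 2 without the latter.

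At the cell surface, Hbegf and Itga5 rose. Hbegf is a membrane-bound ligand of the EGF receptor that is shed from smooth muscle cells. It lay at 3.15, 9.24 and 11.5 CPM in controls and at 10.8, 24.3 and 30.1 under AngII, where AngII female replicate 1 was the only library among the controls. The rise was 1.46 ± 0.30 (edgeR adjusted p = 0.0473) and passed in 2 of the 12 fits that left out a library. It was the only riser of 30 tested growth factors and receptor tyrosine kinases, and the EGF receptor gene Egfr, named after its value was seen, was at 0.10 (adjusted p = 0.91). The list's median was 0.12. Of 31 tested without AngII female replicate 1, 5 rose, 2 fell and the median was -0.07. Itga5, the alpha chain of the fibronectin receptor, rose by 1.29 ± 0.24 (adjusted p = 0.0308) and was the only riser of 26 integrin and focal adhesion genes, of which 4 rose without AngII female replicate 1. Its beta chain partner Itgb1 lies in the unmeasured part of chromosome 8.

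Calcineurin dephosphorylates NFAT transcription factors so that they enter the nucleus, and Rcan1, itself a target of NFAT, encodes an inhibitor that binds calcineurin. Rcan1 was at 10.4, 13 and 27.4 CPM in controls and at 25.6, 42.9 and 52 under AngII. Control female replicate 3 at 27.4 exceeded AngII female replicate 1 at 25.6, and the other 10 libraries were separated. The rise was 1.4 ± 0.24 (edgeR adjusted p = 0.0186), with the call kept in 6 of 12 fits that left out a library, at 1.34 to 1.65. Rcan1 was the only 1 of 22 tested genes of the calcineurin and NFAT list that passed, and the list's median was 0.09. The related inhibitor Rcan2 was at -0.01 ± 0.15, between 239 and 325 CPM in controls and 216 and 375 under AngII. The catalytic subunits Ppp3ca, Ppp3cb and Ppp3cc were at -0.57 ± 0.25, -0.02 ± 0.19 and 0.14 ± 0.30, and the regulatory subunit Ppp3r1 at 0.13 ± 0.29. The transcription factors Nfatc1, Nfatc2 and Nfatc4 were at -0.21 ± 0.16, -0.17 ± 0.35 and 0.41 ± 0.23. None of these passed, with edgeR adjusted p from 0.506 for Ppp3ca to 0.99 for Rcan2. Nfatc3 was not measured.

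Rcan1 is transcribed from an upstream and from an internal start on the minus strand of chromosome 16, and the internal one is known to be induced through NFAT. The 250 bases before each start are shown because the counts join both transcripts, together with the same window of Col3a1. They come from RefSeq on GRCm38.p6, read 5′ to 3′ on the strand of the gene, and overlap no annotated exon; capitals mark each GGAAA, the core of the NFAT site, or its complement TTTCC. The upstream Rcan1 window is chr16:92466170-92466419, the internal one chr16:92400079-92400328, both on the minus strand within the Rcan1 gene, and the Col3a1 window is chr1:45311288-45311537 on the plus strand.
Rcan1 upstream start: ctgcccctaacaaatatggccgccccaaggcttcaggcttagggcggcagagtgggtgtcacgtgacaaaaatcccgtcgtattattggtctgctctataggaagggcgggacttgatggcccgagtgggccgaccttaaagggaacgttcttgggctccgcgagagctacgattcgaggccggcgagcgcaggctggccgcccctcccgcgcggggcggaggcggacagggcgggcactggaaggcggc
Rcan1 internal start: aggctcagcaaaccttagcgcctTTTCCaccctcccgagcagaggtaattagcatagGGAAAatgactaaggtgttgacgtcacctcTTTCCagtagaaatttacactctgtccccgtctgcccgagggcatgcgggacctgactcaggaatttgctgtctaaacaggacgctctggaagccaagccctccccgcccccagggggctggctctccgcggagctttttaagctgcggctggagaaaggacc
Col3a1: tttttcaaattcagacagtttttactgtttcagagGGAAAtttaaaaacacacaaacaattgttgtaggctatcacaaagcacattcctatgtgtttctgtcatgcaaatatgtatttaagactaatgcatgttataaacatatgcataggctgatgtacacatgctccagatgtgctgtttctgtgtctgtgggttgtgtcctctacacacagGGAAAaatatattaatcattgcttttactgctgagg
The upstream Rcan1 window has no core, the internal window has 3 and the Col3a1 window has 2. Of 32851 promoters of the same length, 6.39% hold at least 3 and 21.4% at least 2. The internal Rcan1 window also holds TGANTCA, the AP-1 site, starting 110 bases before the start, and the upstream window holds the E-box CACGTG starting 191 bases before its start. The Col3a1 window holds GGAATG, the TEAD site, on the opposite strand. It reads CATTCC in the sequence shown and starts 168 bases before the start. Which Rcan1 transcript rose cannot be read from counts per gene.

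Promoters were found for 27 of the 40 genes, 21 that rose and 6 that fell. Each motif was searched on both strands of the 250 bases before the start. The NFAT core stood in 12 of the 21 risers (57.1%), in 58.7% of 8797 tested genes with a promoter and in 55.6% of all 32851 promoters. TEAD sites stood in 4 risers (19.0%), Acan, Col3a1, Col18a1 and Gpx8, against 12.9% of tested genes, and AP-1 sites in 2 (9.52%), Igfbp2 and Rcan1, against 5.58%. The E-box stood in 2 (9.52%) against 9.67%. No riser held the ER stress element (0.171% of tested genes) or the CArG box of smooth muscle genes (1.43%). These shares are descriptions of letters in short windows.

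The renin-angiotensin genes did not pass. Both AT1 receptor genes were near the lower limit of detection: Agtr1a had 0 to 10.7 CPM in controls and 0.56 to 3.4 under AngII, at -1.23 ± 0.75 (edgeR adjusted p = 0.698), and Agtr1b had 0 to 5.3 and 0 to 5.08 CPM. Agtr1b was at 0.43 ± 1.0 (adjusted p = 0.95). Ace, the enzyme that makes AngII, was at 188 to 287 CPM in controls, and at 115 in AngII female replicate 1 against a median of 536 under AngII. It was at 0.89 ± 0.28 (adjusted p = 0.266), and rose without that library by 1.11 ± 0.16 (adjusted p = 0.00141). The list had 26 tested genes with a median of 0.01.

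Contractile genes of smooth muscle, the main cell of the aortic media, centred on 0. The list held 22 tested genes, 13 above and 9 below 0, a median of 0.03 and none that passed. None passed without AngII female replicate 1 or without control male replicate 2 either. Myh11, the smooth muscle myosin heavy chain, had 7104 to 9685 CPM in controls and 6421 to 8062 under AngII, at -0.12 ± 0.17. Acta2, smooth muscle actin, was at 0.30 ± 0.22 and Cald1 at 0.03 ± 0.16. Of 20 tested genes that mark the switch of these cells to a synthetic state, 18 lay above 0, the median was 0.46 and none passed, while 4 rose without AngII female replicate 1. The heat shock protein gene Hspb7, a small chaperone of muscle, rose by 1.18 ± 0.25 (edgeR adjusted p = 0.0473) from 96.2 to 260 CPM to 198 to 756, and was not on any of these lists. It passed in 2 of the 12 fits that left out a library.

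In the oxidase and antioxidant list 2 of 25 tested genes rose, and the median was 0.16. Cyb5r3, a reductase that keeps soluble guanylate cyclase in its nitric oxide-sensitive form, went from 150, 259 and 422 CPM to 476, 857 and 1101 with no overlap, a rise of 1.59 ± 0.27 (edgeR adjusted p = 0.0159). Gpx8, a peroxidase of the endoplasmic reticulum, rose by 1.01 ± 0.20 (adjusted p = 0.0393), also without overlap. It passed in 1 of the 12 fits that left out a library. The NADPH oxidase gene Nox4 was at 0.15 ± 0.15, between 182 and 304 CPM in controls and 219 and 335 under AngII. Sod3, the extracellular superoxide dismutase, was at 1.06 ± 0.26 (adjusted p = 0.113), and rose without AngII female replicate 1 by 1.23 ± 0.22 (adjusted p = 0.00679). In the list 3 rose without that library and 1 without control male replicate 2. Chaperones of the endoplasmic reticulum, through which secreted matrix passes, had 28 of 31 tested members above 0 at a median of 0.26, and none passed, while 3 rose without AngII female replicate 1. The most abundant of them, Hsp90b1 and Calr, were at 0.45 ± 0.14 and 0.33 ± 0.15.

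Mki67, the proliferation marker Ki-67, was the only 1 of 26 tested cell cycle genes that rose. It went from 0.31, 6.43 and 9.13 CPM to 8, 31.4 and 48.6, where AngII male replicate 2 at 8 CPM was the only library within the control range. The rise was 2.34 ± 0.44 (edgeR adjusted p = 0.0308). The list's median was 0.50, with 18 genes above 0, and 2 rose without AngII female replicate 1. Anxa3 (annexin A3), a phospholipid-binding protein, rose by 0.93 ± 0.19 (adjusted p = 0.0397), from 23.5 to 42.6 CPM in controls to 43 to 67.2.

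Genes that fell were fewer. Of the 10, 7 had every AngII library below every control. Gucy1a1 encodes the alpha subunit of soluble guanylate cyclase, the receptor for nitric oxide that relaxes smooth muscle. It had 198, 260, 279, 289, 323 and 334 CPM in controls and 136, 156, 157, 161, 177 and 180 under AngII. The AngII values lay close together and below all controls, a log2 fold change of -0.80 ± 0.15 (edgeR adjusted p = 0.0294). It was the only 1 of 33 tested vasoactive genes that passed, and its list had a median of -0.16, or 0.03 without control male replicate 2. Gucy1b1, the other subunit of the enzyme, named after its value was seen, was at -0.17 (adjusted p = 0.831), and Pde5a, which degrades the cyclic GMP it makes, was at -0.36 ± 0.17 (adjusted p = 0.577). Calcrl, the receptor for adrenomedullin and calcitonin gene-related peptide, fell by 0.88 ± 0.17 (adjusted p = 0.0393) from 53.4, 62.9 and 90.6 CPM to 27.4, 35.3 and 48.2.

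**Figure D3:**
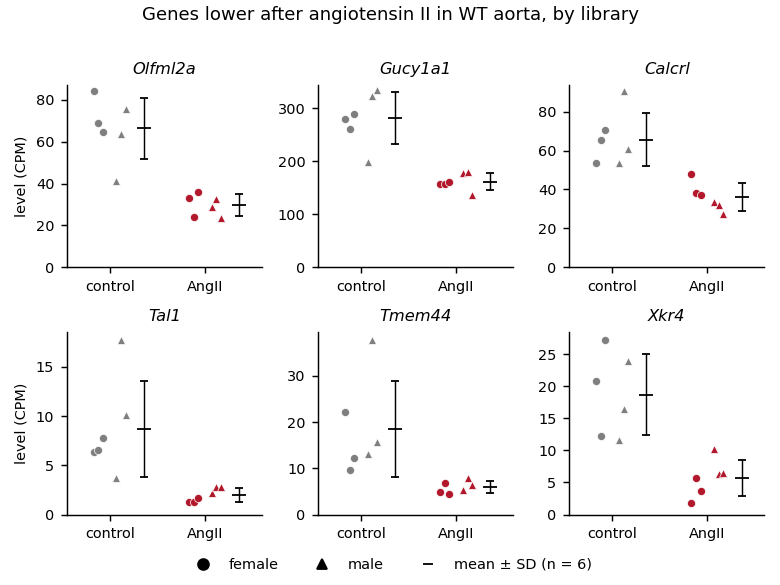
Levels in CPM (library-scaled counts) of 6 genes that fell, in each WT library (circles, female; triangles, male; grey, control; red, AngII), with the mean ± SD of each group (n = 6). In each panel all 6 AngII libraries lie below all 6 controls.

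Olfml2a, an olfactomedin domain protein of the matrix, fell and passed in every fit that left out a library. It went from 41.2, 66.7 and 84.1 CPM to 23.4, 30.8 and 36.2, a log2 fold change of -1.15 ± 0.18 (edgeR adjusted p = 0.00698). The noncoding transcript Gm830 fell by 1.54 ± 0.22 (adjusted p = 0.00624) and also passed in all 12. Tal1, a transcription factor of blood and endothelial progenitors, went from 3.69, 7.16 and 17.7 CPM to 1.23, 1.93 and 2.82, a log2 fold change of -2.13 ± 0.42 (adjusted p = 0.0393). Tmem44, a transmembrane protein, fell by 1.59 ± 0.32 (adjusted p = 0.0426), and Xkr4, of the XK family of membrane proteins, fell by 1.78 ± 0.35 (adjusted p = 0.0393). Control male replicate 2 held the highest level of Tal1, Tmem44 and Calcrl. Without it Tal1 was at -1.87 ± 0.44 (adjusted p = 0.0988) and Tmem44 at -1.29 ± 0.29 (adjusted p = 0.0857), so that both missed the threshold, while Calcrl fell by 0.73 ± 0.15 (adjusted p = 0.0467), Gucy1a1 fell by 0.75 ± 0.15 (adjusted p = 0.0424) and Xkr4 fell by 1.86 ± 0.36 (adjusted p = 0.0348). Of the 12 fits that each left out a library, Calcrl and Gucy1a1 passed in 3, Xkr4 in 4, and Tal1 and Tmem44 in 2. The other 3 fallers were the small nucleolar RNA Gm24130 (-2.44 ± 0.49) and the predicted genes Gm10801 (-2.12 ± 0.44) and Gm21738 (-1.92 ± 0.40), whose groups overlapped and which were highest in control female replicate 3 and control male replicate 2. Without the latter they were at adjusted p = 0.0519, 0.0718 and 0.076. In that fit 33 genes rose (0.253%), 6 fell (0.0459%), and 31 of the 40 were shared.

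Endothelial markers lay lower under AngII. In RNA from whole aorta fewer cells of a type and less RNA per cell cannot be told apart. Of 17 tested endothelial markers 16 were below 0 and none passed, with a median of -0.66. Their summed level ran from 780 through a median of 1454 to 3323 CPM in controls and from 730 through 964 to 1854 under AngII, and the groups overlapped. Pecam1 was at -0.74 ± 0.29, Ptprb at -0.76 ± 0.31 and Vwf at -0.81 ± 0.44. The median was -0.27 in females and -1.01 in males. It was -0.31 without control male replicate 2, which held the 3323, and -0.83 without AngII female replicate 1, which held the 1854, where 2 of the 17 fell. Control male replicate 2 also held the highest Calcrl and Tal1, at 90.6 and 17.7 CPM. AngII female replicate 1, second highest for these markers, had the highest Calcrl of the AngII libraries, at 48.2 CPM, while its Tal1 was 1.28 CPM. The part of endothelial RNA in the falls of Calcrl and Tal1 was not tested.

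Macrophage markers lay higher. Of 20 tested markers 19 were above 0 at a median of 0.69, and none passed. Their summed level was 185, 208 and 260 CPM in controls and 254, 316 and 456 under AngII, so that 1 control library exceeded the lowest AngII library. AngII female replicate 1, the library with the smallest rise of matrix genes, was the highest. F13a1 was at 0.80 ± 0.19 (edgeR adjusted p = 0.0956) and Lyz2 at 0.65 ± 0.20 (adjusted p = 0.265). Cd68, a lysosomal marker named after its value was seen, was at 2.09 ± 0.49 (adjusted p = 0.0966), with all AngII libraries above all controls. It rose without control male replicate 2, by 1.78 ± 0.34 (adjusted p = 0.034). Of 18 tested adventitial fibroblast markers 12 were above 0 at a median of 0.26, and none passed, while 1 rose without AngII female replicate 1. Of 9 tested activated fibroblast markers 7 were above 0 and 2 rose, Postn and Ltbp2, which were already named as matrix genes, while 3 rose without AngII female replicate 1. Their summed level was 793 to 1101 CPM in controls and 1251 to 3547 under AngII, without overlap. Most of that sum was Postn, with means of 644 and 1735 CPM beside 978 and 2330 for the sum. The lack of overlap therefore largely repeats the rise of Postn. The part of activated fibroblasts in the rises of the other matrix genes was not tested.

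**Figure D4:**
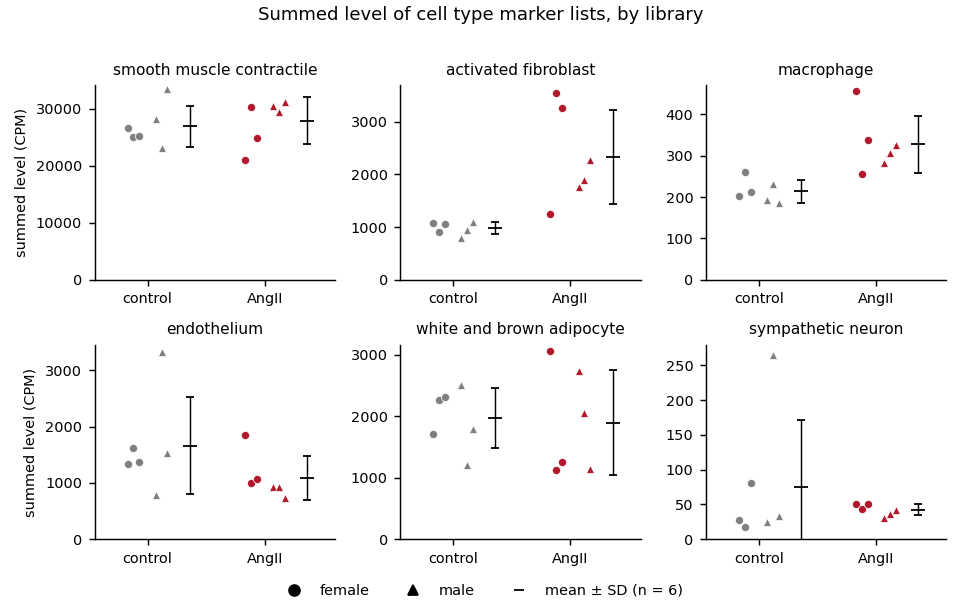
Summed level in CPM (library-scaled counts) of the markers of 6 cell types in each WT library (circles, female; triangles, male; grey, control; red, AngII), with the mean ± SD of each group (n = 6). Smooth muscle and adipocyte sums overlap between the groups. Activated fibroblast sums, which are mostly Postn, do not. Control male replicate 2 stands alone at the top of the endothelial and neuronal panels.

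Other tissues that cling to a dissected aorta differed between libraries more than between groups. Adipocyte markers summed to 1206 to 2512 CPM in controls and 1134 to 3062 under AngII, with a list median of -0.14. It was -0.48 without AngII female replicate 1, which held the 3062, and -0.30 without control male replicate 2. Of 29 tested fatty acid genes 25 were below 0 at a median of -0.25, with -0.46 in females and -0.01 in males, and none passed. It was -0.39 without AngII female replicate 1 and -0.38 without control male replicate 2. Fasn, the fatty acid synthase, was at -0.41 ± 0.41. Sympathetic neuron markers had 7 of 8 tested members below 0 and a median of -2.14, which was -0.74 without control male replicate 2. None passed, while 1 rose and 1 fell of 9 without AngII female replicate 1. Control male replicate 2 summed to 265 CPM beside a control median of 30.6. Of the lymphocyte markers 4 of 23 were tested and 1 was above 0, and no erythrocyte marker passed the count filter.

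The response was read in each sex from the same 12 libraries. Both sexes had the same sign for all 40 genes, which a choice on the pooled change favours, and females had the larger response for 15 of the 30 risers and 5 of the 10 that fell. The median over the fibrillar collagens was 1.00 in females and 0.78 in males, and over the macrophage markers 0.84 and 0.69. No gene passed the test of the male minus the female response (0%, edgeR), with 571 of 12715 at an unadjusted p under 0.05, 7 passing in DESeq2 and 0 in limma-voom. On simulated data this test called 1 of 100 genes with a 2-fold sex difference and 29 of 100 with a 4-fold one. A sex difference could thus be missed. Of the 40 genes Ccn2 had the smallest p of that test, 0.0646 (adjusted p = 0.981), with rises of 1.74 ± 0.30 in females and 0.92 ± 0.29 in males. Xkr4 followed, at -2.42 ± 0.47 and -1.18 ± 0.45 (edgeR adjusted p = 0.981). Within a sex, none passed in females (0%) and only Igfbp2 in males (0.00786%), at 3.96 ± 0.58 (adjusted p = 0.0467).

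**Figure D5:**
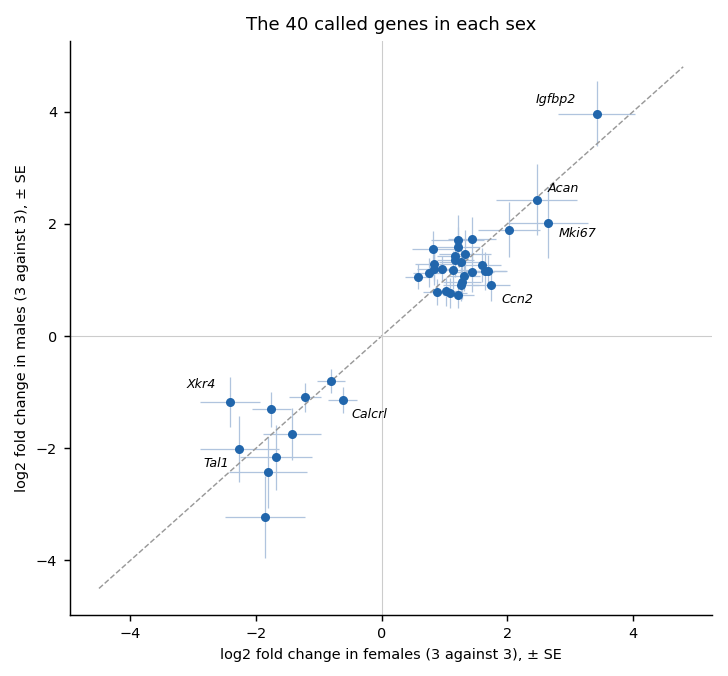
Log2 fold change of AngII against control in males (vertical axis) against females (horizontal axis) for the 40 genes that passed the test over both sexes, each with its standard error (3 against 3 in each sex; dashed, equal response). All points lie at the lower left or upper right, on both sides of the dashed line.

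In the Ppp3cb knockout aortae, fitted with all 24 libraries in one model, the 30 risers were all above 0 under AngII, at a median of 0.77 beside 1.31 in WT, and 7 of the 10 fallers were below 0, at -0.48 beside -1.66. The genes were chosen on the WT libraries, so their smaller KO values are no test of a difference. The difference between the genotypes passed for no gene of 16316 (0%, edgeR), with 657 at an unadjusted p under 0.05 and 0 passing in DESeq2 and in limma-voom. Of the 30 risers 7, and of the 10 fallers 6, had an unadjusted p under 0.05, all at an adjusted p of 0.9999. Examples from these, chosen with their values known, are Tal1, Gucy1a1 and Mki67. Tal1 was at -2.11 in WT (edgeR adjusted p = 0.0646 in this fit) and at 0.42 ± 0.47 in KO. Gucy1a1 was at -0.78 (adjusted p = 0.228) and 0.16 ± 0.22, and Mki67 at 2.36 (adjusted p = 0.0353) and 0.26 ± 0.48.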

How the data were processed

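The deposited table holds whole-number read counts per gene, made by the authors with cutadapt 1.8.1, TopHat2 2.0.14, Bowtie2 2.2.5 and featureCounts 1.4.6 on mm10, per the submitters' processing notes, from RNA depleted of ribosomal RNA, per the labels' protocols. Counting settings, strand among them, are not given in the sources used here. Of 41128 gene IDs 40254 matched GENCODE M21. Counts of the 12 WT libraries were scaled by TMM, filtered with filterByExpr (minimum count 10, minimum total 15) and fitted in edgeR 4.0.16 (R 4.3.3) by the quasi-likelihood test on sex and treatment, two-sided, with Benjamini-Hochberg adjustment. CPM are TMM-scaled. The sex and genotype differences were contrasts of group means over 12 and 24 libraries. DESeq2 1.42.0, limma 3.58.1 (voom with quality weights), other scalings, filters and covariates, and leaving out each library were tried as alternatives, and the code was tested on simulated data. There the main test called 30 of 100 genes changed 2-fold and 78 of 100 changed 4-fold, so a gene that did not pass may still have changed.

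The members and gene lists were chosen with earlier results of these data known. Named genes are up to 15 largest rises and falls, up to 8 called and 3 abundant uncalled members of each list, and a set of calcineurin, angiotensin and matrix genes. Nfatc3 was not measured, and Ccl2 and Il6 were below the count filter. Promoter windows and motifs come from RefSeq on GRCm38.p6. Protein sequence features were not analysed here. Results of 1 gene and its list are not reported here.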

Additional observations from a re-analysis of the deposited data

Results flagged for a closer look

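In 18 of 182 groups of 6 libraries, from 84 genes and 7 marker sums, the highest or lowest library stood off from the rest. The values below are its gap to the nearest library as a share of the range of the group, on the log2 CPM scale. Chance alone would give about 1 in 20 groups, or 9.1 of 182, if the groups were independent. They are not, since genes named in the text were examined over the same libraries, so the 2 numbers are no test. Library AngII female replicate 1 was the one standing off, below the other 5, for Mgp (0.824), Fn1 (0.821), Sod3 (0.772), Mfap4 (0.766), Igfbp7 (0.688), Mfge8 (0.687), Calr (0.675), Hbegf (0.675), Ace (0.659) and Uchl1 (0.635). Control male replicate 2 stood off for Fasn (0.831), Ppp3ca (0.778), Col5a2 (0.674), Mgp (0.662) and Hbegf (0.656). The remaining ones were spread over libraries: Ppp3ca in AngII female replicate 3 (0.654), Ppp3cb in AngII female replicate 2 (0.626) and Tgfb1 in control male replicate 3 (0.655).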

How the results depend on the processing

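Most of the 40 calls lie close to the threshold, and their number, more than the size or sign of the changes, moved with the processing. It was 236 (161 higher, 75 lower) without a filter on low counts, 131 (101 and 30) in DESeq2, 236 (185 and 51; 38 shared) in limma-voom, 0 in females alone (748 at an unadjusted p under 0.05, edgeR) and 0 in males alone (954), and 9 to 177 when a library was left out. With the replicate block it was 17, all among the 40. Same-numbered libraries shared only a number, with correlations of their deviations from -0.02 to 0.05. The cause of these shifts was not tested. The count stayed between 32 and 41 with other scalings, a stricter filter, robust dispersion, all 24 libraries, no sex term, or covariates for fat and muscle or small RNA. The genes changed more than the count. Among the 40 were 27 of 34 with all 24 libraries, 29 of 34 with the fat and muscle covariates and 23 of 32 with small RNA. With DESeq2 size factors it was 40 of 41. The test between sexes called 7 genes in DESeq2. The test between genotypes called 0 to 2 genes when a library was left out, the 2 without KO control female replicate 2. Of 4784 values of 185 named genes under the alternatives 4359 kept their side of the threshold, 317 lost it, 108 gained it, and no called gene changed sign. Most of these values are of genes that never passed, and only called genes could lose the threshold. Of the 40 called genes 30 passed in 6 or fewer of the 12 fits that left out a library. Of 906 list medians 32 moved by more than their spread between replicates, among them fibrillar collagens, at 0.46 with all 24 libraries. Each median is over the members tested in its own fit, and the fit of 24 libraries tested 16316 genes, not 12715. In it Col1a1, Col3a1, Col1a2 and Col5a2 were at 1.46, 1.22, 1.16 and 1.13, no lower than in the main fit. Precision was lowest for genes such as Agtr1a and Agtr1b, of few CPM, with standard errors of 0.75 and 1.0 log2 units. How much of this is depth was not tested.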

Other observations

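None of 33 tested genes of calcium handling and ion channels passed the edgeR test, at a median of 0.04, and none of 36 genes of the nuclear-encoded respiratory chain, at -0.06. The latter was -0.22 without AngII female replicate 1, with 7 above 0. Of 19 tested targets of YAP and TAZ, mechanosensitive coactivators, 17 were above 0, where 49.4% of all tested genes were, Ccn2 rose and the median was 0.28. Of these 2 rose without AngII female replicate 1. Of 16 tested complement genes 13 were above 0 at a median of 0.37, and none passed. Of 16 tested Notch genes 5 were above 0 at a median of -0.17, and none passed. Antigen presentation (12 of 16 above 0, median 0.17) and interferon response genes (13 of 26, median -0.02) held no call. Their medians were 0.47 and 0.27 in females and -0.17 and -0.31 in males, and 1 interferon response gene fell without AngII female replicate 1. Clock genes had a median of -0.37 in females and 0.29 in males, with 1 of 18 above 0 in both sexes and no call. Immediate early genes (14 of 24 above 0), adhesion molecules, chemokines and cytokines (8 of 16) and tubulins (10 of 12) held none either, and of 14 tested calcification genes 11 were above 0 at a median of 0.50 and Acan rose, while 3 rose without AngII female replicate 1. These lists were not tested as sets.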
